A study of Mus musculus with 20 samples.

Results

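The tripartite motif (TRIM) family was followed here as every array probe whose gene name is Trim with a number. Of 41174 probes with 27962 gene names on the array, 99 probes met that rule, and they carry 51 gene names. Of these, 72 probes from 43 genes cleared background on 10 or more of the 20 arrays and entered the tests, among 26064 probes in all. The 7 probes named Trim12, Trim30 and Trim34, which lie together on chromosome 7, and the 3 probes named Trim16, on chromosome 11, were set against the other 89 probes from 47 genes, of which 62 probes were tested. The arrays measured RNA of whole trachea from adult mice, 4 months old by the labels, in 4 groups of 5. Wild-type C57/Bl6 mice and Myd88KO mice, which carry a germline deletion of the adaptor gene Myd88, were left uninjured or were collected 3 days after 2% polidocanol, a detergent that strips the airway epithelium, had been given into the trachea. The Myd88KO mice had been backcrossed to C57/Bl6JOlaHsd and were then bred among themselves, whereas the wild-type mice came from a separate colony, so the deletion and the colony cannot be told apart. Sex was not given per sample, and the study used both sexes. All signals below are on the log2 scale relative to the 75th percentile of the same array, so 0 is a bright probe and a step of 1 is a doubling, and levels of different probes are not comparable with each other.

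TRIM proteins share an amino-terminal arrangement of a RING finger, one or more B-boxes and a coiled coil, and most are E3 ubiquitin ligases. Many are induced by interferon and act in antiviral defence or in tuning the signals of Toll-like receptors, for which Myd88 is the adaptor. Trim30 is known for promoting the degradation of Tab2 and Tab3, carriers of the Toll-like receptor signal, and Trim12 and Trim34 are relatives of the retrovirus restriction factor Trim5. Trim16 lacks the RING finger, binds galectins and is expressed in stratified epithelia.

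The arrays were of even quality, with 57.5% to 67.8% of spots well above background and a correlation of 0.923 to 0.990 between arrays of a group. Every slide carried 1 array from each group, 5 slides in all, and slides 1 and 5 were scanned on another day than slides 2 to 4. Markers of tracheal epithelium, cartilage and muscle were present in every group. Injured Myd88KO replicate 5 had the lowest share of spots above background and 192 outlier spots, against 69 to 113 on the other 19 arrays. The Myd88 probe, which cannot check the labels because its place relative to the deletion is not given in the sources used here, read 2.13, 1.95, 2.28, 1.94 and 2.08 on uninjured wild-type and 1.60 to 2.04 on uninjured Myd88KO arrays, a difference of −0.21 (SE 0.14, adjusted p = 1.00). After injury it was lower in Myd88KO by −0.77 (SE 0.14, adjusted p = 0.00824), with no overlap. Injured Myd88KO replicate 1, which reads like wild-type on a Trim12 probe below, was the lowest array of its group for Myd88, at 1.54. As these are whole tissues, fewer cells of a type and less RNA per cell cannot be told apart.

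The promoters of the chromosome 7 genes are shown because those genes carried most of the differences and because several of them share an interferon-type motif. The accession of each Trim30 and Trim34 probe and of 1 Trim12 probe was matched to the current RefSeq symbols Trim30a, Trim34a and Trim12a. In RefSeq order the cluster runs Trim6, Trim34a, Trim5, Trim12a, Trim34b, Trim12c, Trim30b, Trim30c, Trim30a and Trim30d, so Trim34 and Trim12 each have a close paralog a short way along the chromosome. The lines below give 250 bases before and 50 bases after the annotated start, read 5′ to 3′ along the gene (RefSeq, GRCm38.p6). Capitals mark the core letters of the interferon-stimulated response element, GAAA and GAAA with any 2 bases between them, which read TTTC and TTTC on the other strand.
Trim34a, chr7:104244207-104244506, plus strand: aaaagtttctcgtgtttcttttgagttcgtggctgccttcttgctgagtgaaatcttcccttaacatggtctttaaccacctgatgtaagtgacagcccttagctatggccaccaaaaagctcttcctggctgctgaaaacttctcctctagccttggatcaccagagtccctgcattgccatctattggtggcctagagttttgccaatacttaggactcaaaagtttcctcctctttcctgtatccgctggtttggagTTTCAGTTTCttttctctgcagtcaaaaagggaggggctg
Trim34b, chr7:104329221-104329520, plus strand: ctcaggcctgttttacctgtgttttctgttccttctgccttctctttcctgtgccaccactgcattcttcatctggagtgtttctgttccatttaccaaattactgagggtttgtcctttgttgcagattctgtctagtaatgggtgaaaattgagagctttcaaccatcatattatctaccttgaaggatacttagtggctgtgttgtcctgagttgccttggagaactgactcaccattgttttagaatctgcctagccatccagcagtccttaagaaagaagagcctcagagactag
Trim12a, chr7:104315446-104315745, minus strand: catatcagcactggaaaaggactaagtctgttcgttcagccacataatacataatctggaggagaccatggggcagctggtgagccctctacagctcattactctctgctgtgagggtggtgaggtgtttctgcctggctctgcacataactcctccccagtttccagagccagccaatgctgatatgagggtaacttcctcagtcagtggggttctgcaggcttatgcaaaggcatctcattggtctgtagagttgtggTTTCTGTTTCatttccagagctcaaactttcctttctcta
Trim12c, chr7:104353300-104353599, minus strand: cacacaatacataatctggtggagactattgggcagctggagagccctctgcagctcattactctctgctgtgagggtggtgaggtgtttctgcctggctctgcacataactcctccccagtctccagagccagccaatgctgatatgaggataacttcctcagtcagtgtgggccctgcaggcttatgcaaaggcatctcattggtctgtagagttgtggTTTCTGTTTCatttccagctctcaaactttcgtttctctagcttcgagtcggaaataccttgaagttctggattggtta
Trim30a, chr7:104446076-104446375, minus strand: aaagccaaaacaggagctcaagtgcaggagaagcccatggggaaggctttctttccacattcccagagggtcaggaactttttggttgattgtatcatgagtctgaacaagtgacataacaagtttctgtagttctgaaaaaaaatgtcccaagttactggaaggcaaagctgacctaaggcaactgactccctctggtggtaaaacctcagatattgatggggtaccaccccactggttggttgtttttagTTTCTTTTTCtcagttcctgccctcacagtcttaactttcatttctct
The motif began at base 11 of the transcribed part in both Trim34a and Trim12a, at base 3 in Trim30a and 29 bases before the start in Trim12c, and it was not found in this window of Trim34b. Searched on both strands, it was held by 3.44% of 32851 mouse promoters in the table and by 10 of 67 Trim promoters (14.9%), from the 9 genes Trim2, Trim5, Trim12a, Trim12c, Trim21, Trim26, Trim30a, Trim30d and Trim34a. The Trim12a and Trim12c promoters were identical at 82.7% of bases in a global alignment, against 60.0% for Trim34a and Trim34b. A motif of the NF-kappaB type, GGGA and TTTCC with any 1 base between them, was in none of the 67 Trim promoters and in 0.411% of all. These matches are letters in a window and were not tested as binding sites.

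To find which TRIM transcripts differed without Myd88, the genotypes were compared in uninjured and in injured tracheas. In uninjured tracheas 5 of 72 TRIM probes were called at an adjusted p under 0.01 (6.94%), beside 0.384% of all probes tested. They were 4 of the 10 cluster and Trim16 probes, each lower in Myd88KO, and 1 of the 62 others, a Trim27 probe that was higher (beside 0.196% of all probes lower and 0.188% higher). The paper had already listed Trim12, Trim16 and Trim34 among its most down-regulated genes from these same arrays. The counts for the 10 probes, here and below, are therefore no independent support for setting them apart. At an unadjusted p under 0.05 there were 8 of the 10 and 4 of the 62 (3 of these higher), beside 5.59% of all probes and 3.82% higher. The 5 arrays of each genotype did not overlap for 8 of the 10 and 1 of the 62, beside 2.51% of all probes. In injured tracheas 4 of 72 were called (5.56%, beside 0.380% of all probes), and they were the same 4 cluster and Trim16 probes, again lower. At an unadjusted p under 0.05 there were 9 of the 10 and 13 of the 62 (21.0%, beside 12.5% of all probes), and of those 13, 8 were higher and 5 lower (beside 4.43% of all probes higher and 8.09% lower). There the genotypes did not overlap for 6 of the 10 and 1 of the 62, beside 1.96% of all probes. The share of all probes called in both comparisons was 0.265%. The 61 other TRIM probes that were not called in uninjured tracheas differed by −0.61 to 1.01, and the 62 in injured tracheas by −1.04 to 0.89. The median difference of those 62 probes was 0.08 uninjured and 0.05 injured, beside 0.04 and −0.03 for all probes tested. The plot of both genotype differences shows the called cluster and Trim16 probes far below 0 on both axes. Some cluster probes that were not called lie off the diagonal. The Trim34 probe A_52_P157316 was at 0.64 uninjured and −0.14 injured, and the Trim30 probe A_52_P442567 at −0.50 and −1.34.

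**Figure D1:**
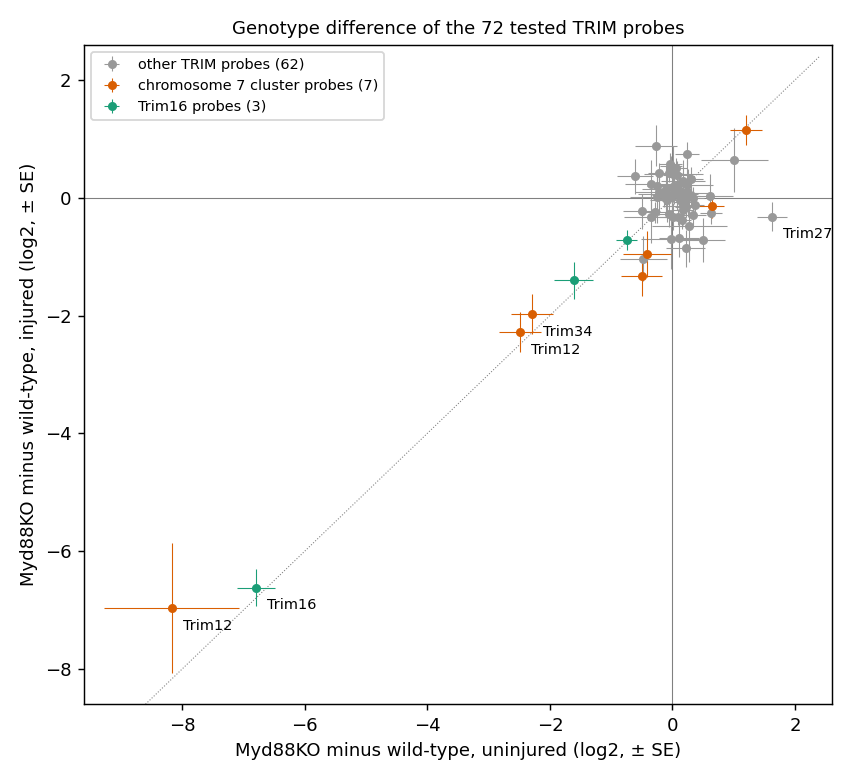
Myd88KO minus wild-type difference of the 72 tested TRIM probes, uninjured on the x axis and injured on the y axis (log2, bars are standard errors, dotted line is equality). Gene names mark probes called in either comparison: 4 Trim12, Trim16 and Trim34 probes lie far below 0 on both axes, and the Trim27 probe is at 1.62 uninjured and −0.32 injured.

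Of the 3 Trim16 probes, 1 was called lower in Myd88KO in both states, and the others differed in the same direction by much less and were not called. The probe A_52_P212650 (chromosome 11, 62924392 to 62924451; the build of the array's positions was not stated) read −0.07, −0.18, 0.12, −0.15 and 0.41 on uninjured wild-type arrays and 0.09, −0.16, −0.50, 0.03 and −0.33 on injured ones. On uninjured Myd88KO arrays it lay between −7.67 and −5.95 and on injured ones between −7.54 and −6.22, and it was well above background on none of these 10. This probe therefore passed the filter through the 10 wild-type arrays alone. Its level was at least 33.0-fold lower in uninjured Myd88KO (adjusted p = 7.41e-11) and at least 30.0-fold lower in injured Myd88KO (adjusted p = 1.20e-10), the dim group being set at the lowest signal that counts as above background. These sizes hold for the scanner's own background subtraction: with normexp correction and an offset of 50 the differences were −3.50 uninjured and −3.46 injured, smaller than these bounds and still called. Each of the 5 slides had the same direction in both states.

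The other Trim16 probes, which lie 1.59 and 2.21 kb to its side, were above background on all 20 arrays. A_51_P502580 read 1.66, 1.75, 2.35, 1.73 and 1.68 in uninjured wild-type and 1.06, 1.29, 1.15, 0.75 and 1.20 in uninjured Myd88KO. The groups did not overlap, and the difference of −0.74 (SE 0.17) was not called (adjusted p = 0.0504). A_52_P325477 was at −0.71 ± 0.58 (SD, n = 5) in uninjured wild-type and −2.32 ± 0.41 in uninjured Myd88KO, a difference of −1.61 (SE 0.32, adjusted p = 0.0156), and of −1.40 after injury (adjusted p = 0.0454). In each of the 4 groups its readings on slides 1 and 5 lay below those on slides 2 to 4, and with slide as a block it was called in uninjured (adjusted p = 1.58e-04) and in injured tracheas (adjusted p = 6.65e-04). Injury moved none of the Trim16 probes by more than 0.23 in either genotype, and no such difference was called (lowest adjusted p = 0.732).

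Trim12 was the cluster gene with the widest gap. Its probe A_52_P267391 (chromosome 7, 100356374 to 100356433) read 1.78, 1.83, 0.86, 1.54 and 1.67 in uninjured wild-type, and −7.14, −6.99, −6.38, −7.44 and −5.19 in uninjured Myd88KO, where no array was well above background. The probe passed the filter through the 10 wild-type arrays and 1 injured Myd88KO array. Its level was at least 93.9-fold lower in uninjured Myd88KO (adjusted p = 2.54e-04), and it was lower on each of the 5 slides. With normexp correction the uninjured difference was −4.73, smaller than this bound and still called. In injured wild-type the probe read 1.76, 0.81, 1.59, 1.17 and 2.42, while injured Myd88KO arrays 2 to 5 read −7.33, −7.36, −7.32 and −6.10. Injured Myd88KO replicate 1 read 1.01, within the wild-type range, so the injured groups overlapped. The difference in injured tracheas was called (adjusted p = 0.00167), but 4 of its 5 Myd88KO readings were not above background, so its size is not given. Without replicate 1 the level was at least 99.1-fold lower in injured Myd88KO (adjusted p = 3.44e-10).

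The same array was high on the other Trim12 probe. A_52_P634829, which lies 4.33 kb away, was at −2.48 ± 0.25 in uninjured and −2.56 ± 0.38 in injured wild-type and at −4.97 ± 0.57 in uninjured Myd88KO. In injured Myd88KO it read −3.30 on replicate 1 and −5.40 to −4.91 on the others, all below every injured wild-type array. The uninjured difference was −2.49 (SE 0.34, adjusted p = 2.87e-04). The injured one was −2.28 (adjusted p = 9.18e-04), and with normexp correction these were −1.16 and −1.07. Uninjured Myd88KO replicates 2 and 3 and injured Myd88KO replicates 2, 4 and 5 were not well above background on this probe. These sizes therefore rest in part on such readings. Injured Myd88KO replicate 1 stayed below wild-type on the Trim16 probe A_52_P212650, at −6.22. Fitting only the injured groups ended both injured Trim12 calls (adjusted p = 0.115 and 0.0399), as did the methods' one-way test (adjusted p = 0.323 and 0.162). The uninjured call of A_52_P634829 was lost in 1 of 32 alternative settings (adjusted p = 0.0104).

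Trim34 probes disagreed in direction. A_52_P278853 (chromosome 7, 100393102 to 100393161) read −2.32, −1.75, −2.28, −1.95 and −2.25 in uninjured wild-type against −4.84, −4.55, −3.82 and −3.80 on Myd88KO arrays 1 to 4, with array 5 lower still, and −2.24 to −1.78 in injured wild-type against −5.37 to −3.03 in injured Myd88KO. The groups did not overlap in either state. The probe differed by −2.29 (SE 0.34, adjusted p = 7.87e-04) in uninjured tracheas, and by −1.98 (adjusted p = 0.00413) after injury, or by −1.08 and −0.94 with normexp correction. Uninjured Myd88KO replicates 1 and 5 and injured Myd88KO replicate 5 were not well above background on it. The probe A_52_P367034, whose array position runs from 100306007 to 100391705 and so spans the Trim12 probes, pointed the other way. It read −4.95, −4.09, −4.89, −4.86 and −4.91 in uninjured wild-type and −3.40, −3.70, −3.50, −3.48 and −3.60 in uninjured Myd88KO, with differences of 1.20 (SE 0.26, adjusted p = 0.0359) uninjured and 1.15 (SE 0.26, adjusted p = 0.0454) injured that were not called, although the groups did not overlap in either state. A_52_P157316 did not clear background in uninjured wild-type and did so on 4 of 5 arrays in each other group, and its level in uninjured Myd88KO was at least 1.16-fold higher, a difference that was not called (adjusted p = 0.321). By array position A_52_P278853 lies 36.7 kb beyond the first Trim12 probe, on the side where RefSeq places Trim34b, and A_52_P157316 lies 52.4 kb to the other side, where it places Trim34a. Which paralog each probe reads was not tested. Leaving out any 1 of the 5 injured wild-type arrays or injured Myd88KO replicate 2 took the injured call of A_52_P278853 past the threshold (adjusted p = 0.0102 to 0.0164). Of 32 alternative settings in all, 9 ended this injured call (adjusted p up to 0.255). The uninjured call of A_52_P278853 was lost in 1 of them (adjusted p = 0.0150).

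Trim30 was not called between genotypes. A_52_P442567 was at −1.34 ± 0.33 in uninjured wild-type and −1.84 ± 0.48 in uninjured Myd88KO (difference −0.50, SE 0.34, adjusted p = 1.00), and at −0.13 ± 0.80 and −1.47 ± 0.56 after injury (difference −1.34, SE 0.34, adjusted p = 0.0824). For A_51_P275454 the uninjured difference was −0.41 (SE 0.40, adjusted p = 1.00). Its injured difference was −0.95 (adjusted p = 0.314). In injured wild-type, arrays 1 and 5 read 0.41 and 0.95 on A_52_P442567 and arrays 2 to 4 read −0.55, −1.06 and −0.41. Arrays 1 and 5 are those scanned on the other day. The injured genotype difference was −0.85 within slides 2 to 4 and −2.07 within slides 1 and 5. Scanning day, slide and the samples on a slide cannot be told apart here.

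**Figure D2:**
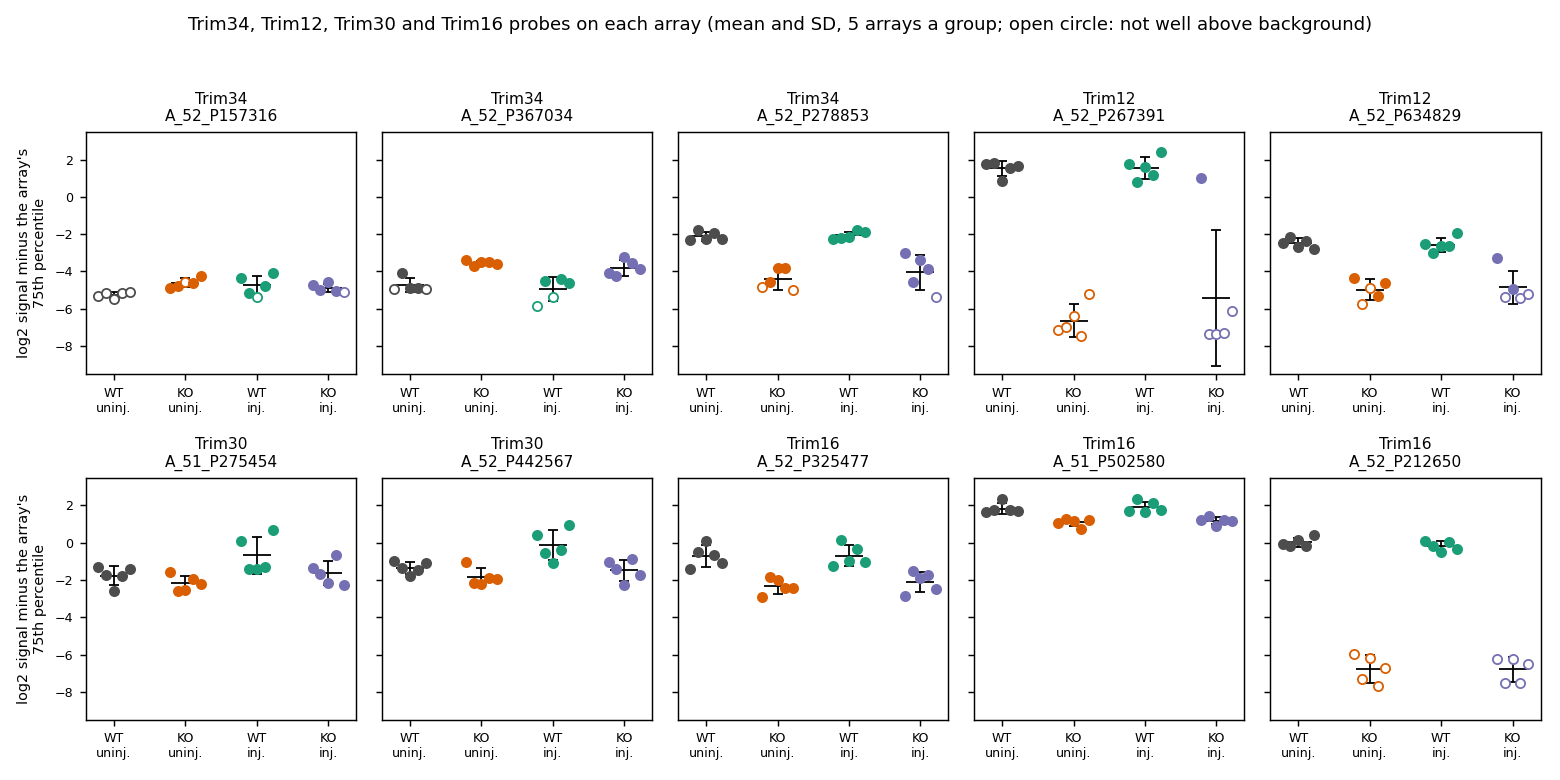
Log2 signal relative to the 75th percentile of the array (y axis) for each Trim34, Trim12, Trim30 and Trim16 probe, with 1 point for each of the 5 arrays of wild-type (WT) and Myd88KO (KO) uninjured and injured groups, in order of replicate from left to right, and mean and SD as bars. Open circles were not well above background: A_52_P212650 is open on all 10 Myd88KO arrays, and A_52_P267391 on 9 of them, with injured Myd88KO replicate 1 at 1.01.

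Probes around the cluster were read for genotype differences along the chromosome. Within 2 Mb of the Trim12 probe, 56 tested probes carry another gene name. Of these, 2 were called in uninjured and 3 in injured tracheas, beside 0.384% and 0.380% of all probes tested. These were named after their values were seen. TC1485374, a transcript cluster 1.31 kb from the Trim12 probe and between both Trim12 probes, was higher in Myd88KO. It read −2.26 to −0.93 in uninjured Myd88KO against −6.33 to −4.83 in uninjured wild-type, where no array was above background. Its level was at least 10.3-fold higher (adjusted p = 1.47e-05). The probe passed the filter through all Myd88KO arrays and 2 injured wild-type arrays, so mainly through the group where it is high. The array has 2 tested probes of AI451617, a name that RefSeq lists as a synonym of Trim30d. A_52_P371494, whose own accession was not matched, was at least 5.34-fold lower in uninjured Myd88KO (adjusted p = 0.00255), where 0 of 5 arrays were above background. It was also called lower after injury (adjusted p = 0.00308), where 2 of 5 were. This probe passed the filter through all wild-type arrays and those 2, so mainly through the group where it is high. A_52_P199633, whose accession matched Trim30d, differed by −1.49 (SE 0.41, adjusted p = 0.186) before injury, which was not called, and by −2.28 (adjusted p = 0.00696) after it. On A_52_P371494 injured Myd88KO replicate 1 again read highest of its group, at −3.18 against −7.52 to −4.70. The probe of 9230105E10Rik, matched to Trim12c, differed by 0.43 (SE 0.38, adjusted p = 1.00). Trim6, Trim21 and Trim68, which lie 65.4 to 1748 kb to the other side, had 0 of 3 tested probes called in either comparison. The plot of differences by distance shows the called probes from the Trim12 probe out to 170.4 kb, with most others near 0. Around Trim16, 67 tested probes with another name lay within 2 Mb. Of these, 0 were called in uninjured tracheas by limma (beside 0.384% of all probes), and 1, BC025076, was called in injured ones (beside 0.380%).

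**Figure D3:**
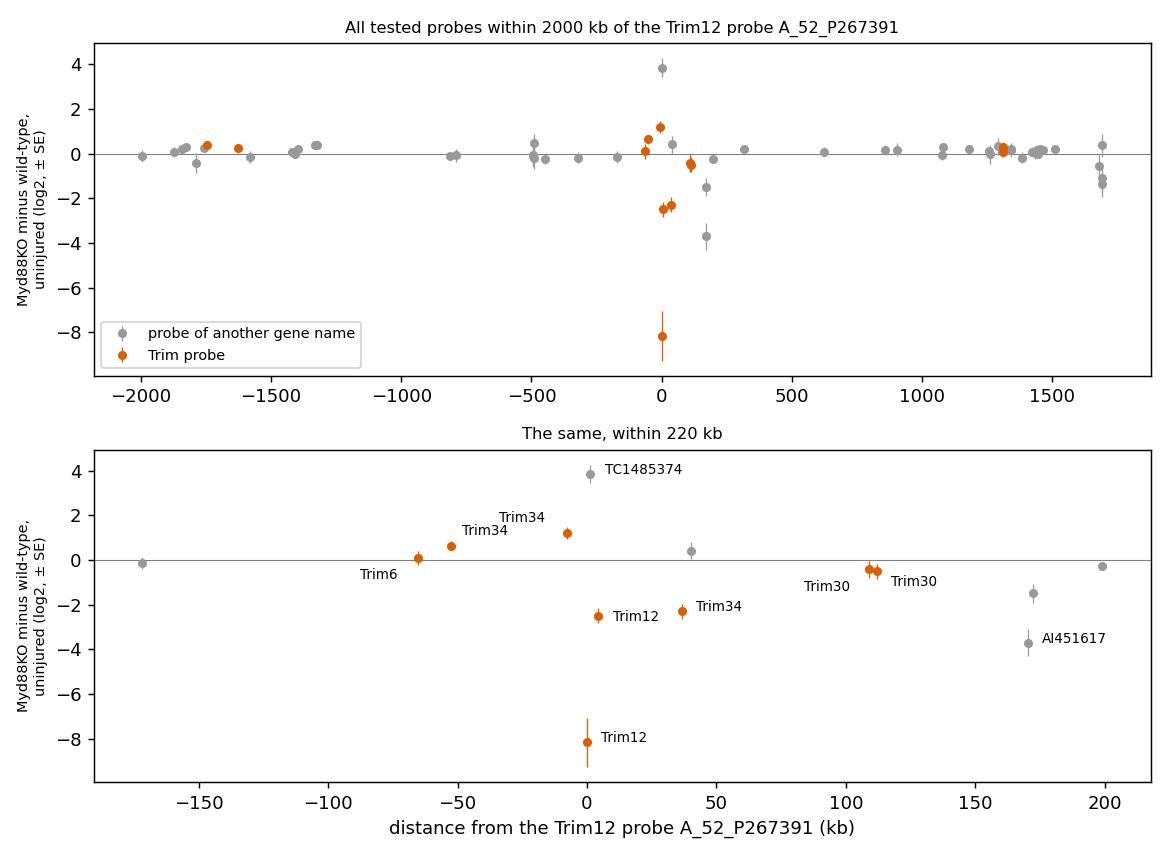
Myd88KO minus wild-type difference in uninjured tracheas (y axis, log2, bars are standard errors) against distance in kb from the Trim12 probe A_52_P267391 for every tested probe within 2000 kb (upper panel) and 220 kb (lower panel). Trim probes are orange: the Trim12 probes at −8.17 and −2.49 and a Trim34 probe at −2.29 lie near the grey TC1485374 probe at 3.85. These are measured differences, and those of A_52_P267391 and TC1485374 rest on a group whose readings were not above background.

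Because several TRIM genes have more than 1 probe, the probes of a gene were also compared with each other on the same array, which removes what they share. The family had 37 such pairs in 22 genes, among 11122 pairs of all genes. In uninjured tracheas 5 of the 37 pairs shifted between genotypes, beside 0.575% of all pairs, and the same 5 did in injured tracheas, beside 0.548%. They belong to Trim12, Trim16 and Trim34. The gap between A_51_P502580 and A_52_P212650 of Trim16 was wider in uninjured Myd88KO (adjusted p = 2.47e-09), and the Trim12 pair shifted too (adjusted p = 8.28e-04). No size is given for these shifts, because 1 probe of each pair had no uninjured Myd88KO array above background. That probe, A_52_P212650 or A_52_P267391, passed the filter only or mainly through wild-type, the group where it is high. Each called pair of Trim16 and Trim12 includes such a probe, so these pair calls add no separate support. For A_52_P278853 against A_52_P367034 of Trim34 the shift was −3.50 (SE 0.36, adjusted p = 6.27e-06). The pair of Trim30 probes shifted by 0.09 (SE 0.17, adjusted p = 1.00). None of the 29 pairs in the 18 other genes was called by limma (lowest adjusted p = 0.221 uninjured and 0.280 injured), and their median shift was 0.23 and 0.17 in size. After injury in wild-type 0 of the 37 pairs were called by limma, beside 0.423% of all. In the injured genotype comparison the Trim12 pair and the pair of A_52_P157316 with A_52_P278853 were close to the threshold (both adjusted p = 0.00701), and leaving out any 1 of 13 arrays removed both.

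Trim27, a RING finger protein that represses transcription, was the only gene outside the cluster and Trim16 with a call between genotypes. Its probe A_52_P601446 (chromosome 13, 20547550 to 20547609) read −3.51, −4.48, −4.55, −4.30 and −4.10 in uninjured wild-type and −2.51, −2.29, −2.43, −2.90 and −2.70 in uninjured Myd88KO. The groups did not overlap, and Myd88KO was higher by 1.62 (SE 0.25, adjusted p = 0.00108). In injured wild-type it read between −2.29 and −1.81 and in injured Myd88KO −2.03, −1.78, −2.50, −1.98 and −3.33, so these groups overlapped (difference −0.32, SE 0.25, adjusted p = 0.628). Background correction by normexp (difference 0.75, adjusted p = 0.0477) and the methods' one-way test (adjusted p = 0.0248) ended the uninjured call. The other Trim27 probe, A_51_P408537, differed by −0.09 (SE 0.47, adjusted p = 1.00), and in every group it read lower on slides 1 and 5 than on slides 2 to 4. Within 2 Mb of Trim27, 1 of 31 other probes was called in uninjured tracheas, Hist1h4i, beside 0.384% of all probes tested.

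Markers of other cells moved with genotype as well. Cardiac muscle markers, 6 genes on 9 tested probes, had 3 probes called higher in Myd88KO in each state, beside 0.188% of all probes uninjured and 0.150% injured. In each state 1 of the 9 was lower at an unadjusted p under 0.05, beside 1.77% of all probes uninjured and 8.09% injured. The median difference of these markers was 0.09 uninjured and 0.84 injured. Their summed level in units of the 75th percentile was 6.34 to 7.32 in uninjured wild-type and 11.1 to 19.5 in uninjured Myd88KO. Of 13 tested myeloid probes 8 were lower in injured Myd88KO at an unadjusted p under 0.05 (beside 8.09% of all probes), with 0 called by limma. No defining marker of either list was below background on all arrays. Their part in the TRIM differences was not tested.

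Next, injured tracheas were compared with uninjured ones within each genotype. In wild-type 2 of 72 TRIM probes rose (2.78%) and 0 fell by limma, beside 5.26% of all probes tested (3.24% higher and 2.03% lower), and 23 of 72 had an unadjusted p under 0.05, beside 26.4%. In Myd88KO none of the 72 was called by limma, beside 0.376% of all probes, and 8 had an unadjusted p under 0.05 (6 of them lower), beside 19.5% of all (12.2% lower). The arrays of injured and uninjured Myd88KO did not overlap for 1 of 72, beside 3.45% of all probes, and in wild-type for 7, beside 12.6%. The methods' one-way test called 2 in wild-type and 0 in Myd88KO. Without injured Myd88KO replicate 5, 2 TRIM probes were called in Myd88KO (Trim59 A_51_P275808 and Trim3 A_51_P483658), and 1075 rather than 98 probes of all.

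Trim27 and Trim59 were the genes with a probe called higher after injury in wild-type. The Trim27 probe A_52_P601446 rose by 2.18 (SE 0.25, adjusted p = 8.01e-05), with each injured array above each uninjured one and slides at 1.21 to 2.67. In Myd88KO, where it was already higher before injury, it differed by 0.24 (SE 0.25, adjusted p = 0.642). The difference between these responses was −1.95 (SE 0.35) and was not called over all probes by limma (adjusted p = 0.193). In that contrast 0 of all 26064 probes tested were called. Under 32 alternative settings the wild-type rise of A_52_P601446 was 1.09 at the smallest and was called in each. The other Trim27 probe, A_51_P408537, differed after injury by 0.52 (adjusted p = 0.517) in wild-type and by 0.68 (adjusted p = 0.456) in Myd88KO. Neither of its differences was called.

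Trim59, a membrane-anchored TRIM protein linked to proliferation, was measured by a pair of probes. A_52_P512561 read −5.16, −5.61, −3.94, −6.68 and −4.12 in uninjured wild-type and −2.55, −3.06, −2.66, −3.39 and −3.31 after injury, a rise of 2.11 (SE 0.50, adjusted p = 0.00884) with no overlap. It was above background on 2 of 5 uninjured arrays in each genotype. A_51_P275808 differed by 1.77 (SE 0.44) in wild-type, which was not called (adjusted p = 0.0118), as uninjured replicate 3 read −1.80 beside −3.79 to −3.38. In Myd88KO the latter probe differed by 1.80 (SE 0.44, adjusted p = 0.0312). Injured Myd88KO arrays 1 to 4 read −1.95, −0.99, −1.18 and −0.84 on it, and replicate 5 read −3.72, within the uninjured range. Without replicate 5 the difference in Myd88KO was 2.30 (adjusted p = 2.05e-04). The wild-type call of A_52_P512561 was lost without any 1 of 13 arrays (adjusted p up to 0.0283) and with slide as a block (adjusted p = 0.0138). It was lost in 17 of 32 alternative settings in all (adjusted p up to 0.0403). The smallest wild-type rise of this probe among them was 0.82.

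**Figure D4:**
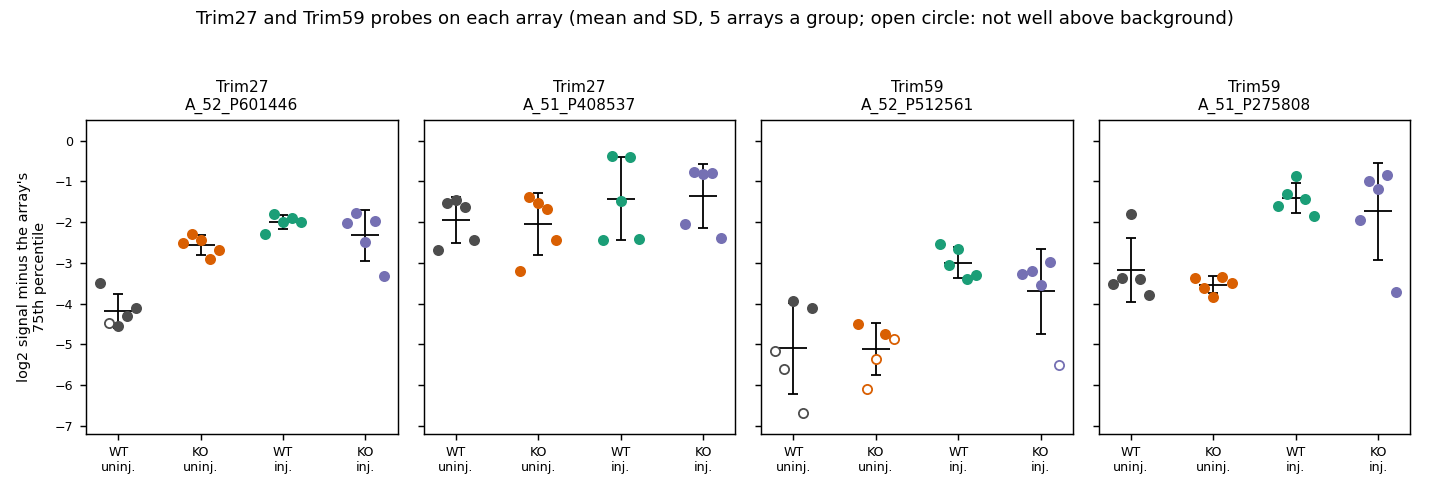
Log2 signal relative to the 75th percentile of the array (y axis) for both Trim27 and both Trim59 probes, with 1 point for each of the 5 arrays of a group and mean and SD as bars, open circles being not well above background. The Trim27 probe A_52_P601446 has uninjured wild-type alone at −4.55 to −3.51, and both Trim59 probes are higher after injury except on injured Myd88KO replicate 5.

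Of the probes next in order of p, Trim47 differed by 0.60 (SE 0.16, adjusted p = 0.0171) in wild-type after injury and 0.07 (adjusted p = 0.847) in Myd88KO. Trim3 A_51_P483658, of the NHL repeat group, was at −0.73 (SE 0.20, adjusted p = 0.0238) in wild-type and −0.71 (adjusted p = 0.0627) in Myd88KO. Trim45 differed by −0.56 (SE 0.13, adjusted p = 0.0289) in Myd88KO and −0.15 (adjusted p = 0.527) in wild-type. Trim21, the cytosolic antibody receptor, differed by −0.44 (SE 0.15, adjusted p = 0.117) in Myd88KO. None of these was called. The Trim30 probe A_52_P442567 differed by 1.21 (SE 0.34, adjusted p = 0.0239) in wild-type after injury, with slides at 0.74 to 2.05, and by 0.37 (SE 0.34, adjusted p = 0.590) in Myd88KO. With slide as a block the wild-type difference was called (adjusted p = 0.00529).

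Cell markers moved with injury too. Epithelial markers, 6 genes on 7 tested probes, had 2 probes called lower in wild-type (beside 2.03% of all probes). There 2 others were higher at an unadjusted p under 0.05 (beside 14.5%), and the median difference was 0.34. In Myd88KO 1 was called lower (beside 0.242% of all probes) and the median was 0.45. Their summed level was 737 to 1182 on uninjured and 141 to 364 on injured wild-type arrays. On Myd88KO arrays this sum was 752 to 1124 and 258 to 711. Of 13 tested myeloid probes 5 were called higher in injured wild-type (beside 3.24% of all probes) and 0 by limma in injured Myd88KO. In injured Myd88KO 6 were higher at an unadjusted p under 0.05, beside 7.32% of all probes. No epithelial or myeloid marker was below background on all arrays. Their part in the Trim27 and Trim59 differences was not tested.

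The remaining TRIM genes were grouped by what they are known for. Of the antiviral and interferon-linked genes, which include Trim25 and Trim21, 11 probes of 8 genes were tested and 0 were called by limma in any of the 5 contrasts. At an unadjusted p under 0.05, 4 of them were higher in wild-type after injury and 0 lower (beside 14.5% of all probes higher), and in Myd88KO 2 were lower and 0 higher (beside 12.2% lower). Striated muscle genes, the MuRF proteins Trim54, Trim55 and Trim63, had 4 tested probes. Of these, 2 were lower in injured wild-type at an unadjusted p under 0.05 (beside 11.9% of all probes), with a median of −0.79. In Myd88KO 0 of them reached that level, with a median of −0.51, and 0 were called by limma. Muscle markers moved the same way in injured wild-type: 16 of 16 skeletal probes had a negative difference (median −0.35, 0 at an unadjusted p under 0.05). So did 8 of 9 cardiac probes (median −0.54, 1 called lower). Of all probes tested there, 13029 of 26064 were negative and 2.03% were called lower. In Myd88KO 14 of 16 skeletal and 8 of 9 cardiac probes were negative (beside 15042 of 26064 of all), with medians of −0.36 and −0.43. Their part in the values of the striated muscle genes was not tested. The NHL repeat genes had 4 of 5 probes lower in injured wild-type at an unadjusted p under 0.05 and a median of −0.38, beside 11.9% of all probes lower and a median of 0.00. The chromatin-bound TIF1 group, 5 probes, and the microtubule-linked group, 6 probes, each had 0 called by limma in every contrast, with medians of −0.26 and 0.02 after injury in wild-type.

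**Figure D5:**
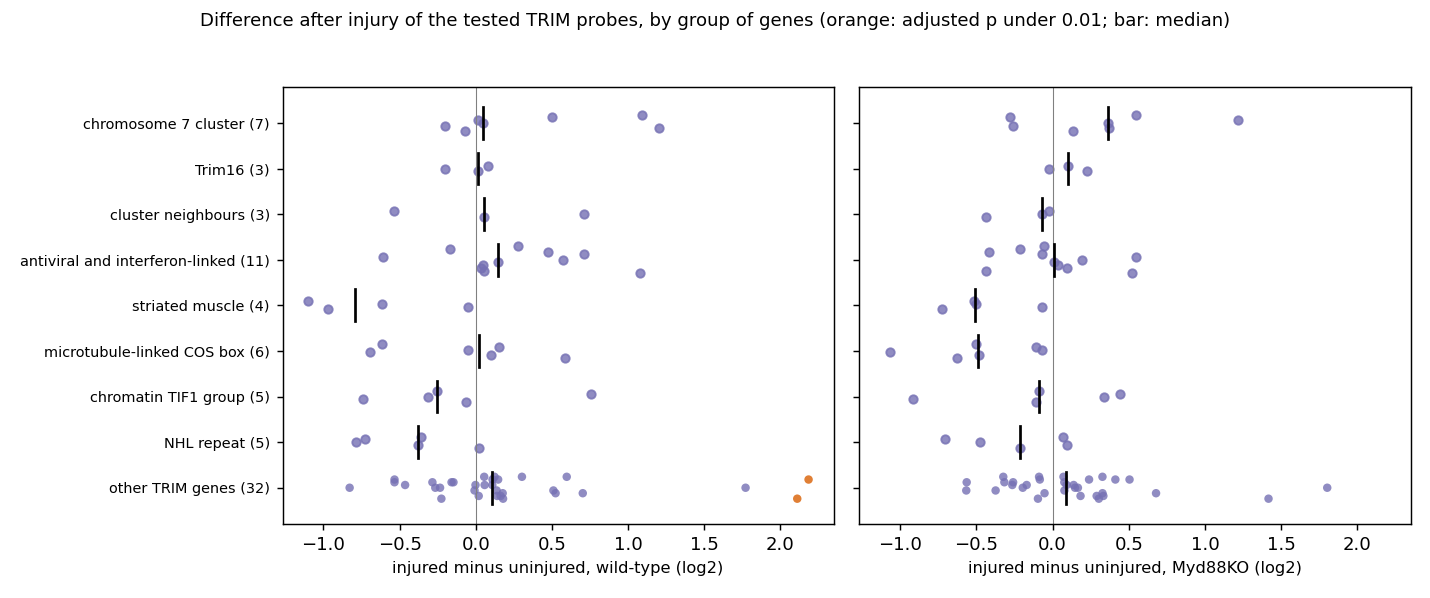
Injured minus uninjured difference of each tested TRIM probe (x axis, log2) in wild-type and in Myd88KO, by group of genes (y axis, number of probes in brackets, some genes in more than 1 group, black bar is the median). Called probes are orange: Trim27 at 2.18 and Trim59 at 2.11, both among the other genes in wild-type.

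Genes that TRIM proteins work with were read next. Of 37 tested probes of 18 partners and substrates, 1 rose and 1 fell after injury in wild-type, beside 5.26% of all probes. Lgals3, which encodes galectin 3, a partner of Trim16, rose by 1.18 (SE 0.21, adjusted p = 0.00143). Of 3 Ikbkg probes A_52_P156110 fell (SE 0.21, adjusted p = 0.00239), and the other two were not called. Between genotypes 0 of the 37 were called by limma in either state, and 3 were lower and 0 higher in uninjured Myd88KO at an unadjusted p under 0.05, beside 1.77% of all probes lower and 3.82% higher. Of 22 tested probes of 13 interferon-induced genes, 0 were called by limma in any contrast. In uninjured tracheas 22 of 22 were higher in Myd88KO (median 0.34), beside 14785 of 26064 of all probes tested (median 0.04). There 2 were higher and 0 lower at an unadjusted p under 0.05, beside 3.82% and 1.77% of all probes. Their summed level was 12.0 to 22.3 in uninjured wild-type and 17.4 to 29.9 in uninjured Myd88KO. At an unadjusted p under 0.05, 9 were lower in injured Myd88KO than in injured wild-type and 0 higher, beside 8.09% and 4.43% of all probes. Their summed level was 13.7 to 38.2 in injured wild-type and 11.7 to 20.1 in injured Myd88KO. Between the responses of the genotypes to injury, 14 of these 22 probes had a lower difference at an unadjusted p under 0.05 (beside 6.96% of all). Of the 72 TRIM probes 0 were called for that contrast by limma, beside 0 of all 26064 probes tested. Of the 72, 15 had an unadjusted p under 0.05 (20.8%, beside 10.4%), 6 of them higher (beside 3.41%).

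The 27 TRIM probes that did not enter the tests included 14 that were above background on no array and 13 that were so on 1 to 9 arrays. For 8 genes, Trim10, Trim17, Trim31, Trim42, Trim50, Trim52, Trim60 and Trim61, no probe was tested. Trim6, with 5 probes, the largest number for a gene here, had 1 tested.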

How the data were processed

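RNA of 20 mouse tracheas, 5 in each of 4 groups, had been hybridised to one-colour Agilent whole genome arrays, and the deposited files hold the scanner output. The intensity values had been background-subtracted and detrended within each array by the authors with Agilent Feature Extraction 9.5.1.1, per the file headers, and were not scaled between arrays. Here log2 of the processed intensity minus the 75th percentile of its array was used, outlier spots were left out, and spots of a probe were averaged. Probes above background on at least 10 arrays (26064) were fitted in 1 model of 4 group means with limma 3.58.1 in R 4.3.3, with Benjamini-Hochberg adjustment over all probes, and were called at an adjusted p under 0.01. Pairs of probes of a gene were fitted in the same way on their difference. The script was tested on simulated data. Where no array of a group was above background on a probe, the fold against it was given as a bound, with the dim group set on each array to the higher of its own reading and the lowest signal that counts as above background. Readings by array and the plots show measured values. Alternatives were other background corrections, scalings, filters, blocks, sets of arrays and the methods' one-way test. Leaving out injured Myd88KO replicates 1 and 5 together was chosen after seeing the data. Members and lists were chosen with earlier results of these data known. Named probes were those called, all probes of their genes, of Trim12, Trim30, Trim34 and Trim16, and the 5 TRIM probes of lowest p in each comparison of 2 groups. Promoters were aligned with Biopython 1.88. The labels do not say that the 5 arrays of a group come from separate animals, while the paper calls them biological replicates. The p-values measure only the spread between these samples. The number of arrays limits the precision.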

Additional observations from a re-analysis of the deposited data

Results flagged for a closer look

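For 19 probes, the named TRIM probes and the Myd88 probe, 76 groups of 5 arrays were looked at. Of these groups, 8 held 1 array far from the nearest of the others, and chance alone sets 1 apart in about 5% of such groups. Injured Myd88KO replicate 1 read 1.01 on Trim12 A_52_P267391 (nearest array −6.10) and −3.30 on Trim12 A_52_P634829 (nearest −4.91). Injured Myd88KO replicate 5 read −5.52 on Trim59 A_52_P512561 (nearest −3.55). Uninjured wild-type replicate 3 read −1.80 on Trim59 A_51_P275808 (nearest −3.38) and 2.35 on Trim16 A_51_P502580 (nearest 1.75). Single far arrays were also uninjured wild-type replicate 2 at −4.09 on Trim34 A_52_P367034 (nearest −4.86), uninjured Myd88KO replicate 1 at −1.02 on Trim30 A_52_P442567 (nearest −1.87) and injured Myd88KO replicate 2 at −1.65 on Trim21 A_52_P640484 (nearest −1.29).

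Of the 27 TRIM probes left out of the tests, some were above background mainly in certain groups. Trim10 A_51_P417891 was so on 3 of 5 injured Myd88KO and 2 of 5 injured wild-type arrays and on 0 uninjured ones. Trim9 A_52_P580150 was so on 3 of 5 uninjured Myd88KO and 3 of 5 injured wild-type arrays, on 0 of 5 uninjured wild-type arrays and on 1 of 5 injured Myd88KO arrays. These differences were not tested.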

How the results depend on the processing

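Of 90 named probe results, 11 were called, and none of these changed direction under the 32 alternatives. Of the 79 that were not called, 24 changed sign under at least 1 alternative, and 0 of them were called by limma with the turned sign. In all, 2766 of the 90 results' values stayed on the same side of the threshold, 34 were no longer past it and 39 came past it. Between uninjured genotypes, 5 TRIM probes were called, 5 to 6 when single arrays were left out and 2 with the methods' one-way test. Between injured genotypes, 4 were called, 3 to 4 without single arrays and 1 both with the 2 groups alone and with the methods' test. After injury in wild-type, 2 were called, 1 with no filter on dim probes, 7 with scanning day as a block, 7 with array weights, 5 without injured Myd88KO replicates 1 and 5, and 1 to 4 without single arrays. Over all probes 1372 were called there in the main fit. The counts over all probes under these alternatives are not given here, so a change particular to TRIM probes cannot be told from a change over all probes. In Myd88KO, 0 were called by limma (8 at an unadjusted p under 0.05), 4 with array weights, 4 without injured Myd88KO replicates 1 and 5, and 0 to 2 without single arrays. Over all probes these last counts were 98, 1901 and 1967. Probe pairs called between injured genotypes numbered 5, 3 with no filter, 3 with the 2 groups alone, 2 with the methods' test and 3 to 5 without single arrays. With the replicate number, which is the slide, as a block, 6 probes were called between uninjured genotypes, 5 between injured ones, 5 after injury in wild-type (1 of the 2 kept) and 0 in Myd88KO, and 7 and 5 pairs. The deviations of same-numbered arrays correlated over 0.1 in 23 of 30 pairs (−0.262 to 0.476), and not in all, so the numbers were not taken as a pairing. The causes of these changes were not tested, beyond fewer arrays or probes by construction. Signals near background limit the dim Trim12, Trim16 and Trim34 readings in Myd88KO.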
